A study of Homo sapiens with 30 samples.

Results

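Tissue factor, thrombomodulin and the plasminogen activators were followed through their transcripts in T47D, an established human luminal breast cancer cell line that carries the progesterone receptor. The members are 5 genes chosen by name, out of 60554 genes counted: F3 (tissue factor), TFPI (tissue factor pathway inhibitor), THBD (thrombomodulin), PLAU (urokinase-type plasminogen activator) and PLAT (tissue-type plasminogen activator). All 5 were matched by Ensembl identifier. F3 and THBD were higher and PLAU was lower with progestin in each of the 3 settings examined. PLAT stayed at a few read pairs in most libraries, and TFPI was at or near the limit of detection everywhere.

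Tissue factor is the membrane receptor for clotting factor VII, and the complex starts the extrinsic clotting pathway by activating factor X. TFPI inhibits that complex. Thrombomodulin binds thrombin on the cell surface and turns it towards activation of protein C, an anticoagulant. PLAU and PLAT are the serine proteases that convert plasminogen to plasmin, the enzyme that dissolves fibrin and takes part in the breakdown of extracellular matrix. In tumour cells tissue factor is known both for clotting and for signalling through protease-activated receptors.

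The study sequenced RNA of 12 cultures or culture portions in 6 groups of 2 libraries, and the 18 ChIP-seq samples of the series were not analysed here. Cells of passages 18 to 20 were transfected with a control siRNA (siControl) or an siRNA against CEBPA (siCEBPA), the gene of the transcription factor C/EBPα, and kept in charcoal-treated serum for an arrest of 4 hours. They were then collected untreated, with the time label T0, or after the synthetic progestin R5020 at 10 nM, with the time label T360. The remaining 4 libraries, from untreated and from progestin-treated cells, are labelled ICRF and carry no siRNA, arrest or time label. Their cells were of passages 18 to 20 too, and the progestin was again R5020 at 10 nM. ICRF is not spelled out in the labels, and the series' design text speaks of inhibition of topoisomerase 2α. The sample titles say progesterone and the culture protocol says R5020. The number in T0 and T360 has no unit in the titles, and in the siRNA libraries treatment and time label change together, so hormone and time in culture cannot be told apart. No ICRF group without the inhibitor carries the same labels, and the siRNA libraries may belong to a separate experiment, so inhibitor and experiment cannot be told apart either. No label states that the 2 replicates of a group came from separate cultures. The p-values therefore cover the spread between such libraries, possibly a technical one.

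Totals ran from 57364785 to 148624099 assigned read pairs per library. Levels are CPM, read pairs scaled to a common library size, after TMM scaling over the 12 libraries. Changes are log2 fold changes with their standard error (SE) from edgeR's quasi-likelihood test, with Benjamini-Hochberg adjustment over all genes tested and a threshold of 0.05 on the adjusted p. All 8 luminal epithelial markers were expressed in every library, but they moved with the hormone. Of all genes tested, 58.5%, 58.2% and 61.4% were called with progestin in siControl, siCEBPA and ICRF cells, 29.3%, 28.4% and 30.0% downwards. Of the 8 markers, 5 fell in siControl cells, 6 under siCEBPA and all 8 with ICRF. Their summed level was 7776 and 8230 CPM untreated and 8081 and 8731 CPM with progestin in the siControl libraries, 6695 and 6726 against 6182 and 6480 CPM under siCEBPA, and 9775 and 9832 against 4341 and 4587 CPM with ICRF. FOXA1, a luminal transcription factor, fell from a mean of 440.5 to 73.1 CPM in siControl cells. The 6 endothelial markers summed to 0.0958 to 1.06 CPM. KDR gave 0.0479 to 0.991 CPM, and none of PECAM1, CDH5, TEK, TIE1 and EMCN passed 0.113 CPM in any library. The 6 blood markers summed to 1.16 to 2.94 CPM, of which ITGA2B gave 0.871 to 2.64, and PF4 had no read pair in any of the 12 libraries. The 6 fibroblast markers summed to 28.7 to 73.3 CPM, nearly all COL1A1. The 4 basal and myoepithelial markers summed to 8.78 to 35.0 CPM, mostly ACTA2 at 7.23 to 34.2 CPM. That sum was lower with progestin in all 3 settings. Single markers behaved otherwise. TP63 fell with progestin in the siRNA cells but not with ICRF, where its means were 0.730 CPM untreated and 0.814 CPM with progestin. KRT14 did not pass 0.127 CPM in any library. KRT5, a basal keratin, had at most 1 read pair in each untreated library and rose with progestin in all 3 settings, to means of 0.507 CPM in siControl, 2.01 CPM in siCEBPA and 1.76 CPM in ICRF cells. PDGFRB of the fibroblast list rose in all 3 as well, from 0.0409 to 0.481, from 0.00731 to 0.704 and from 0.0429 to 0.170 CPM. The part of these marker changes in the results on the members was not tested. The siRNA lowered its target. CEBPA stood at 47.7 and 54.4 CPM in the untreated siControl libraries and at 10.7 and 12.1 CPM in the untreated siCEBPA libraries, a log2 change of -2.16 ± 0.07 (SE, adjusted p = 2.75e-11). With progestin it stood at 206.9 and 204.0 CPM under siControl and at 57.5 and 62.2 CPM under siCEBPA, so the hormone-treated knockdown libraries stood just above the untreated control libraries.

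In the annotation used for counting (GENCODE 24 on hg38), F3 lies on the minus strand of chromosome 1 from 94529225 to 94541800 with 7 merged exons. THBD lies on the minus strand of chromosome 20 from 23045633 to 23049741 and has 1 exon. PLAU lies on the plus strand of chromosome 10 from 73909177 to 73917497 with 13 merged exons. C10orf55 overlaps it on the opposite strand, and strand-specific counting gave that gene 15 read pairs over all 12 libraries. TFPI lies on the minus strand of chromosome 2 from 187464230 to 187565760 and has 13 merged exons.

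The sequences upstream of F3 and PLAU are shown because these transcripts moved in opposite directions with the hormone in all 3 settings. They come from RefSeq on GRCh38.p14, and 3 of the 4 members looked up had an entry. Each 250-base window before a RefSeq start is printed 5′ to 3′ on the gene's strand, up to the first GENCODE 24 exon base met inside it. Capitals mark AP-1 sites (TGANTCA) in F3 and C/EBP-type sites (TTNCNNAA) in PLAU, found on either strand. F3 is chr1:94541801-94542009 on the minus strand, and PLAU, with its pair of RefSeq starts, is chr10:73910360-73910604 and chr10:73910882-73911103 on the plus strand. Both PLAU stretches lie inside the gene as annotated in GENCODE 24, which starts at 73909177, and so not before its first exon.
F3 upstream: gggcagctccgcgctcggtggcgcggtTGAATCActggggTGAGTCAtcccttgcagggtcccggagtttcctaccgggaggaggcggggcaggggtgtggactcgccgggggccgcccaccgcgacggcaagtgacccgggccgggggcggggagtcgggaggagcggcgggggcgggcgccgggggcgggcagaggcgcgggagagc
PLAU upstream, first start: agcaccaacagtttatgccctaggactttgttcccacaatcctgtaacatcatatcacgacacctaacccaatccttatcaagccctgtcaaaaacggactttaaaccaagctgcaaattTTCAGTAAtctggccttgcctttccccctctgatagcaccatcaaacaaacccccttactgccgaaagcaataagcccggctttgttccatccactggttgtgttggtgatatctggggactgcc
PLAU upstream, second start: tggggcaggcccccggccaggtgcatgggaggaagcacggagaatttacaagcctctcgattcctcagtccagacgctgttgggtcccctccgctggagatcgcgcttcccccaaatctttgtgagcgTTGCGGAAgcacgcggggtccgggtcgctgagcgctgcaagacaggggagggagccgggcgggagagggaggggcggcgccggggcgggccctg
The F3 window holds 2 AP-1 matches, at -223 to -217 and -210 to -204 from the RefSeq start. Such a match occurs in 6.57% of all 35116 RefSeq windows of that length. Each PLAU window holds 1 C/EBP-type match, at -130 to -123 from the first start and at -122 to -115 from the second, and 33.2% of all windows hold that motif. The TFPI window has 1 such match too, and the F3 window has none. Neither PLAU window holds an AP-1 match. The GC box GGGCGG occurs 4 times upstream of F3 and 3 times upstream of the second PLAU start, against 42.6% of windows with at least 1. The single arm of the steroid hormone receptor element, TGTTCT, matched in none of the F3 and PLAU windows (12.4% of all windows hold it), nor did the full element, its inverted repeat with 3 bases between (0.00285%). All motifs were searched on both strands. The GC content was 78% upstream of F3, 46.8% upstream of the first and 68.8% upstream of the second PLAU start, with a median of 58% over all windows. A match is a description of these letters and not a bound site.

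F3 had the highest level of the members in every progestin group, per length as well as in CPM. Its untreated siControl libraries gave 0.675 and 0.804 CPM (47 and 121 read pairs), and the progestin siControl libraries gave 11.1 and 10.65 CPM (684 and 607 read pairs). Under siCEBPA the untreated libraries gave 1.39 and 1.57 CPM and the progestin libraries 17.6 and 14.7 CPM. The ICRF libraries gave 2.00 and 1.94 CPM untreated and 7.71 and 8.64 CPM with progestin. Every progestin library thus lay above every untreated library of the 12. Ordered by group mean, F3 fell from siCEBPA progestin (16.1 ± 2.08, SD, n = 2) through siControl progestin (10.9 ± 0.30) and ICRF progestin (8.17 ± 0.66) to ICRF untreated (1.97 ± 0.04), siCEBPA untreated (1.48 ± 0.13) and siControl untreated (0.739 ± 0.091). No neighbouring groups in that order overlapped.

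**Figure D1:**
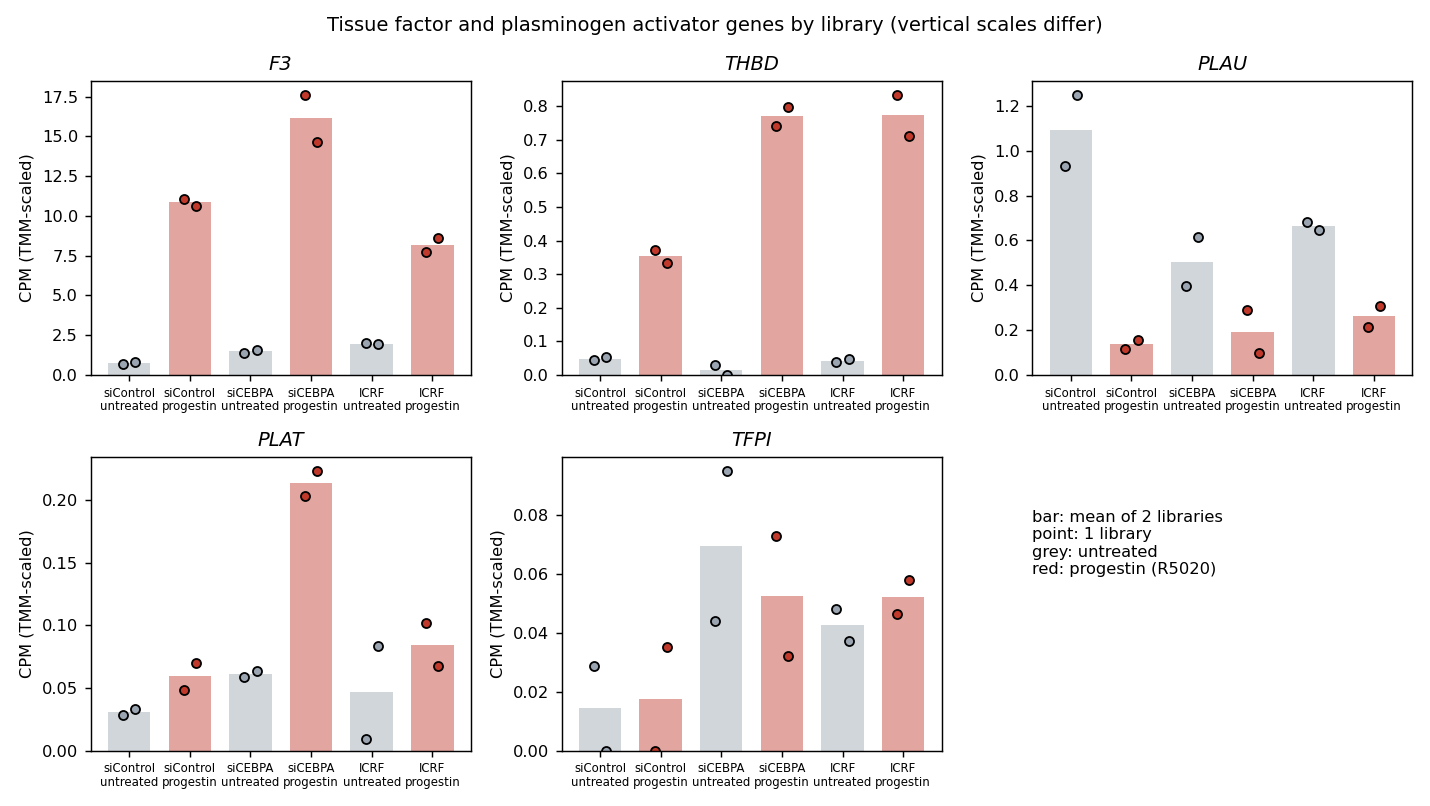
Level of each member in CPM (vertical axes, scales differ) in the 12 libraries of the 6 groups (horizontal axes), with bars for the mean of 2 libraries and points for single libraries, grey for untreated and red for progestin. F3 and THBD stand higher in the red bars of all 3 settings and PLAU stands lower, while no TFPI library passes 0.0949 CPM.

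With progestin F3 was 14.2-fold higher in siControl cells, a log2 change of 3.83 ± 0.14 (SE, edgeR adjusted p = 8.14e-13). In this comparison 58.5% of the 18351 genes tested passed the threshold, 29.2% upwards and 29.3% downwards, so passing it is common and the size of a change says more. Genes that rose at least 2-fold made up 8.19%, and those that fell as far 8.37%. The corresponding shares were 8.35% and 8.34% in siCEBPA cells and 7.25% and 6.69% with ICRF. In bulk RNA, a change in the number of cells that make a transcript and a change per cell cannot be told apart. Under upper quartile factors the share of calls that were upwards was 38.2%, against 50.0% with TMM, and without scaling factors 33.9%, with the median of all genes moving from -0.035 to -0.145 and -0.189 on the log2 scale. Without scaling factors the upward share also moved from 51.3% to 33.3% for the hormone in siCEBPA cells, from 48.5% to 65.3% and from 50.5% to 64.9% for the knockdown without and with progestin, and from 50.9% to 65.2% for the difference of ICRF and siControl responses. Upper quartile factors moved the siCEBPA share to 36.9%. The calls of F3, THBD and PLAU described here kept their direction and their side of the threshold under both settings. In siCEBPA cells, where 58.2% of genes were called and 29.9% upwards, F3 rose 10.9-fold (log2 3.44 ± 0.13, edgeR adjusted p = 1.65e-12). With ICRF, where 61.4% of 18556 genes were called and 31.3% upwards, it rose 4.10-fold (log2 2.04 ± 0.12, edgeR adjusted p = 6.14e-20).

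The F3 response with ICRF was smaller than the siControl response by 1.79 ± 0.18 on the log2 scale in a fit of all 12 libraries (edgeR adjusted p = 5.46e-08). That difference was called for 48.9% of 19003 genes, 24.0% in this direction. It went with a higher untreated level (1.97 against 0.739 CPM) and a lower level with progestin (8.17 against 10.9 CPM), and CEBPA also rose less with ICRF, by 0.79 on the log2 scale. Whether the inhibitor or the separate set of libraries goes with it cannot be told apart.

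CEBPA knockdown was accompanied by more F3 in both states. Untreated siCEBPA cells held 1.96 times as much as untreated siControl cells (log2 0.97 ± 0.17, edgeR adjusted p = 0.000245; 46.6% of genes called, 22.6% upwards). With progestin the level was higher by 0.59 ± 0.10 on the log2 scale (edgeR adjusted p = 0.000237; 44.6% called, 22.5% upwards and 22.1% downwards). In each state both siCEBPA libraries lay above both siControl libraries. The difference between the hormone responses, siCEBPA minus siControl, was -0.38 ± 0.20 on the log2 scale and did not pass the test (edgeR adjusted p = 0.325). These comparisons share their control libraries and are not independent of each other.

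TFPI, the inhibitor of the complex that F3 forms, gave between 0 and 6 read pairs in each library. It had none in untreated siControl replicate 2 and in progestin siControl replicate 1, and 0 counts there allow up to 0.0199 and 0.0486 CPM for counting error alone. The siCEBPA and ICRF libraries held 2 to 6 read pairs each. TFPI passed the filter on low counts in no fit. Without that filter no comparison of TFPI passed the test, with edgeR adjusted p from 0.177 up. The lowest was for untreated siCEBPA against untreated siControl cells, with 9 against 2 summed read pairs and no overlap of the libraries. That ratio was 7.53 with an exact 95% counting interval of 1.56 to 71.6, which leaves out the spread between libraries, and the fit without the filter gave log2 2.57 ± 1.35 (edgeR unadjusted p = 0.0564). With so few read pairs, all group means were below 0.07 CPM.

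THBD was scarce in untreated cells and rose with progestin in every setting. Its untreated siControl libraries gave 0.0431 and 0.0531 CPM (3 and 8 read pairs) and the progestin libraries 0.3725 and 0.333 CPM (23 and 19 read pairs). The untreated siCEBPA libraries held 2 and 0 read pairs, and 51 and 50 with progestin, at 0.742 and 0.799 CPM. With ICRF the counts were 4 and 5 untreated and 90 and 74 with progestin, at 0.834 and 0.713 CPM. No progestin library overlapped an untreated one. THBD passed the filter through its progestin groups alone, so a test of this gene was made only because it was high there.

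In siControl cells THBD rose 6.85-fold (log2 2.78 ± 0.50, edgeR adjusted p = 0.000174). In ICRF cells it rose 17.6-fold (log2 4.14 ± 0.45, edgeR adjusted p = 7.17e-11). In siCEBPA cells the summed counts were 101 against 2, a ratio of 50.6 with an exact 95% counting interval of 13.7 to 424, and the test gave an edgeR adjusted p of 1.17e-06. That interval covers counting error only. The responses did not pass a test of their difference, at 2.73 ± 1.01 for siCEBPA minus siControl (edgeR adjusted p = 0.129, unadjusted p under 0.05, from 1.86 to 6.10 with single libraries left out) and 1.35 ± 0.74 for ICRF minus siControl (edgeR adjusted p = 0.146).

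With progestin, siCEBPA cells held 2.20 times as much THBD as siControl cells (log2 1.13 ± 0.36, edgeR adjusted p = 0.0175). DESeq2 gave an adjusted p of 0.0829 for that comparison, and leaving out any of its 4 libraries in turn gave 0.0628 to 0.099. Without progestin the change was -1.60 ± 0.96 and did not pass the test, at 2 read pairs against 11, and it ran from -4.97 to -0.727 with single libraries left out. Endothelial cells are the textbook source of thrombomodulin. Of the 6 endothelial markers, only KDR passed the filter of the 12-library fit. The summed level of the list was 0.272 to 0.345 CPM in untreated and 0.246 to 0.259 CPM in progestin siControl cells. Under siCEBPA it was 0.219 to 0.316 against 0.0958 to 0.204 CPM. In ICRF cells it was 0.558 to 0.62 CPM untreated and 0.992 to 1.06 CPM with progestin, through KDR, which rose there (log2 0.97, edgeR adjusted p = 0.00128). The part of these markers in the THBD result was not tested in any setting.

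PLAU went the other way. Its untreated siControl libraries gave 0.9335 and 1.25 CPM (65 and 188 read pairs) and the progestin siControl libraries 0.113 and 0.158 CPM (7 and 9 read pairs). Under siCEBPA the counts were 27 and 39 untreated (0.395 and 0.617 CPM) and 20 and 6 with progestin (0.291 and 0.0959 CPM). With ICRF they were 71 and 70 untreated (0.683 and 0.648 CPM) and 23 and 32 with progestin (0.213 and 0.308 CPM). Every untreated library lay above every progestin library. The progestin groups overlapped their neighbours in the order of means, while the 3 untreated groups did not.

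PLAU fell by 3.04 ± 0.42 on the log2 scale in siControl cells (edgeR adjusted p = 1.08e-05), to 0.122 of its untreated level. In siCEBPA cells it fell by 1.35 ± 0.43 (edgeR adjusted p = 0.0142). PLAU passed the filter of the siRNA fit through its untreated groups. The siCEBPA call was lost without untreated siCEBPA replicate 2 (-0.99, adjusted p = 0.131) and without progestin siCEBPA replicate 2 (-0.78, adjusted p = 0.142), and it reached -2.38 without progestin siCEBPA replicate 1, which held most of the 26 read pairs of that group. In ICRF cells PLAU fell by 1.37 ± 0.33 (edgeR adjusted p = 0.000385). The shares of genes called downwards in these comparisons were 29.3%, 28.4% and 30.0%.

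The fall of PLAU was shallower with ICRF than with siControl by 1.68 ± 0.57 on the log2 scale (edgeR adjusted p = 0.0182; 24.9% of genes called in that direction). Leaving out untreated siControl replicate 2, progestin siControl replicate 1 or ICRF progestin replicate 2 ended that call, with adjusted p of 0.071, 0.0962 and 0.102. The difference between siCEBPA and siControl had the same size, 1.69 ± 0.65, and did not pass the test (edgeR adjusted p = 0.153). It passed without progestin siCEBPA replicate 2 (2.26, adjusted p = 0.0304) and was 0.66 without progestin siCEBPA replicate 1. In that comparison 7.24% of all genes were called (4.19% upwards, 3.06% downwards) and none of the 4 members tested by edgeR was, 2 of them at an unadjusted p under 0.05, and DESeq2 called none either, giving an adjusted p for 1 of them.

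Untreated siCEBPA cells held less PLAU than untreated siControl cells, 0.457 of the level (log2 -1.13 ± 0.32, edgeR adjusted p = 0.00833; 24.0% of genes called downwards). The call did not hold without untreated siControl replicate 2 (-0.88, adjusted p = 0.106) or without untreated siCEBPA replicate 1 (-0.85, adjusted p = 0.0981). With progestin the change was 0.56 ± 0.57, not past the threshold, and turned to -0.48 without progestin siCEBPA replicate 1. Knockdown of CEBPA was thus accompanied by more F3 and less PLAU before hormone, and by more F3 after it.

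**Figure D2:**
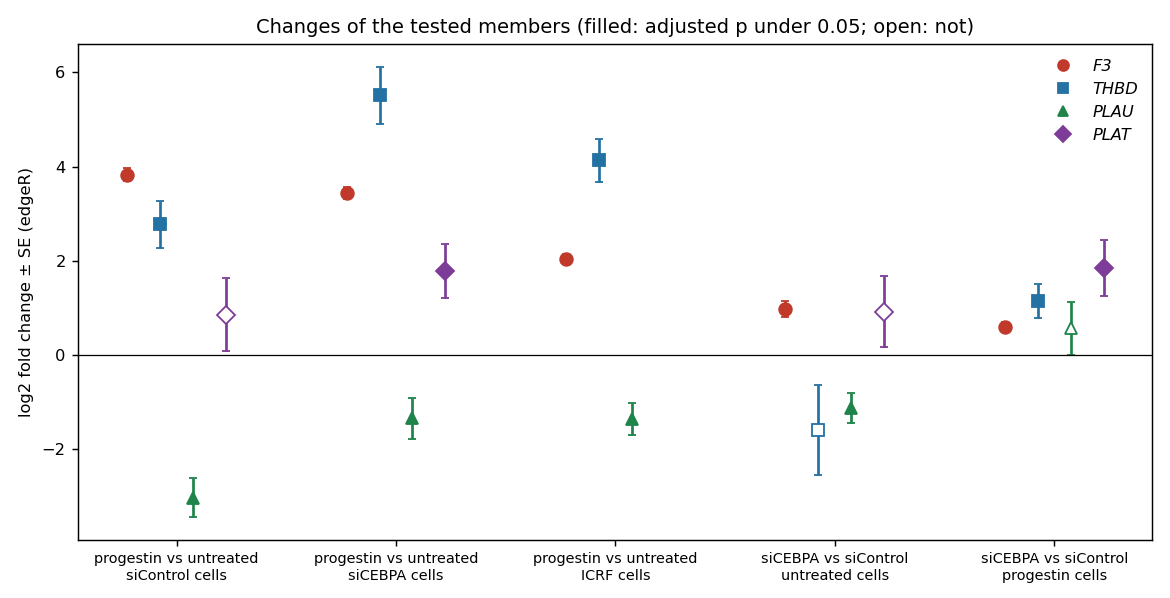
Log2 fold change ± SE from edgeR (vertical axis) of the members tested, in 5 comparisons (horizontal axis), with filled points for an adjusted p under 0.05 and open points for the rest. F3 and THBD lie above 0 and PLAU below 0 in the 3 hormone comparisons, and F3 lies above 0 in both knockdown comparisons.

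PLAT, the other plasminogen activator, was close to the lower limit of these libraries. The gene lies on the minus strand of chromosome 8 from 42175233 to 42207724 with 16 merged exons. Its counts were 2 and 5 in untreated and 3 and 4 in progestin siControl cells, 4 and 4 in untreated siCEBPA cells, 1 and 9 in untreated ICRF cells and 11 and 7 in progestin ICRF cells. The progestin siCEBPA libraries stood apart with 14 and 14 read pairs, at 0.204 and 0.224 CPM, above all other libraries. PLAT passed the filter of the siRNA fit through that group alone and was not tested in the ICRF fit.

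In siCEBPA cells the hormone change of PLAT was 1.78 ± 0.58 on the log2 scale (edgeR adjusted p = 0.0156). It did not pass with DESeq2 (adjusted p = 0.119) or without the filter on low counts (0.0615), nor when any of the 4 libraries was left out (0.0608 to 0.102). The difference between siCEBPA and siControl with progestin, 1.84 ± 0.60 (edgeR adjusted p = 0.0201), was lost without the filter (0.0805) and in each of its 4 reductions (0.0762 to 0.161), and DESeq2 gave no adjusted p for it. In siControl cells the hormone change was 0.85 ± 0.78 and was not called, with a counting interval of the ratio from 0.555 to 6.2.

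Levels of different genes were compared per length, as TPM, the length-scaled share of all transcripts, over the merged exons. In untreated siControl cells PLAU (1.42 ± 0.25 TPM, SD, n = 2) stood above F3 (0.986 ± 0.094 TPM), and THBD, PLAT and TFPI were below 0.05 TPM. After progestin F3 was at 13.2 ± 0.24 TPM, THBD at 0.301 ± 0.021 TPM and PLAU at 0.161 ± 0.039 TPM, so the order of PLAU against both F3 and THBD was inverted. The per-length ratio of F3 to PLAU was 0.742 and 0.66 in the untreated siControl libraries and 100 and 69.2 in the progestin ones. It was 3.61 and 2.6 in untreated siCEBPA and 3.01 and 3.08 in untreated ICRF libraries, where F3 already exceeded PLAU. With progestin it reached 62.1 and 157 under siCEBPA and 37.1 and 28.8 with ICRF. The progestin ratios rest on few PLAU read pairs, so their size is uncertain. These were 7 and 9 in siControl, 20 and 6 in siCEBPA and 23 and 32 in ICRF libraries. The untreated siControl libraries were the only ones of the 12 with more PLAU than F3.

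The partners of these proteins had their own levels. F7, which encodes the ligand of tissue factor, stood at 4.55 ± 0.36 TPM in untreated and 3.02 ± 0.71 TPM in progestin siControl cells. F2RL1, protease-activated receptor 2, which the tissue factor complex can cleave, rose from 18.6 ± 0.87 to 57.6 ± 1.25 TPM. PLAUR, the urokinase receptor, was at 1.13 ± 0.10 and 0.718 ± 0.066 TPM. S100A10, a cell-surface docking protein for plasminogen, stood at 498 ± 20.6 and 1572 ± 27.7 TPM. Its partner ANXA2 was at 291 ± 17.4 and 491 ± 8.08 TPM, and ENO1, a glycolytic enzyme that also binds plasminogen at the cell surface, at 1231 ± 39.1 and 1314 ± 33.2 TPM.

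**Figure D3:**
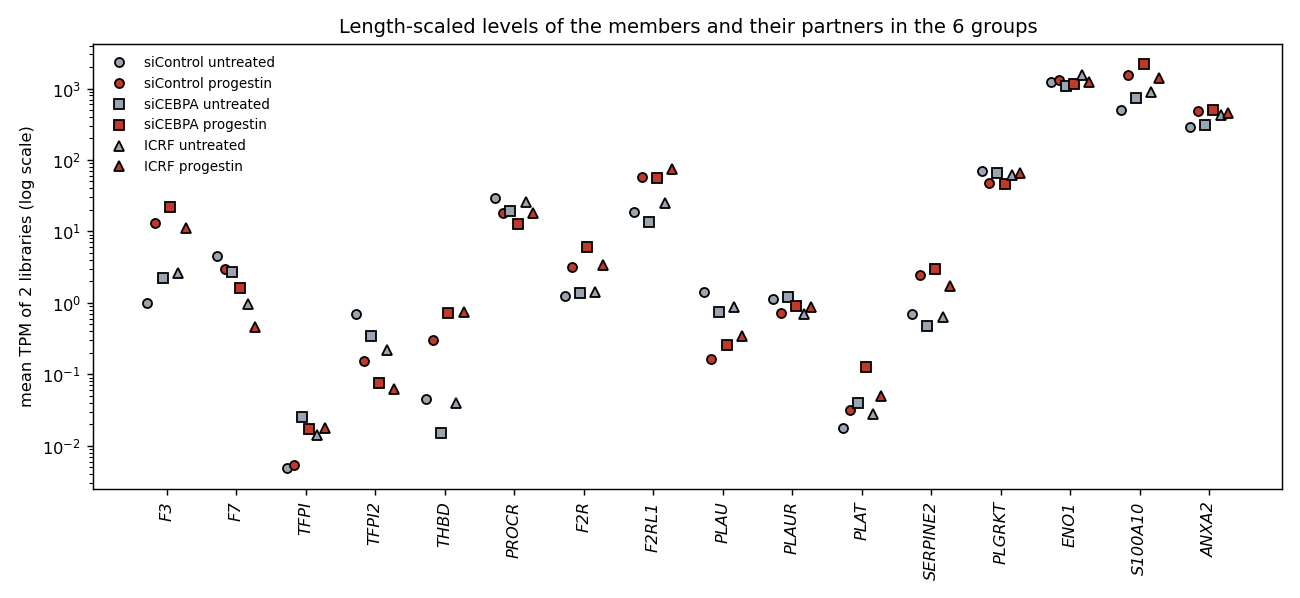
Mean TPM of 2 libraries (vertical axis, log scale) of the members and their direct partners (horizontal axis) in the 6 groups, with red symbols for progestin and symbol shapes for siControl, siCEBPA and ICRF. ENO1, S100A10 and ANXA2 lie highest. TFPI lies lowest except in untreated siCEBPA cells, where THBD lies below it. The red and grey symbols of F3, THBD and PLAU are well apart.

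Among protease receptors, 2 of the 4 listed genes were tested, and both rose in each hormone comparison, where 29.2%, 29.9% and 31.3% of all genes were called upwards in siControl, siCEBPA and ICRF cells. F2RL1 rose 3.36-fold in siControl cells (log2 1.75 ± 0.06, edgeR adjusted p = 1.23e-12), and its log2 change was 2.20 under siCEBPA and 1.59 with ICRF. F2R, the main thrombin receptor, changed by 1.52, 2.23 and 1.23 on the log2 scale, each past the threshold. The hormone response of F2RL1 was larger under siCEBPA than under siControl by 0.45 ± 0.09 (edgeR adjusted p = 0.00705). That call was lost without progestin siControl replicate 1, where the difference was 0.43. The mean level of F2RL1 was not higher under siCEBPA in either state. It was 9.35 CPM against 14.35 CPM under siControl untreated, and 43.0 against 48.6 CPM with progestin.

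Of the 12 genes listed for plasminogen, its receptors and its inhibitors, 8 were tested in the siRNA fit. In siControl cells 4 rose and 3 fell, where 58.5% of all genes were called, with a median log2 change of -0.10 against -0.035 for all genes. Of these calls, the rise of ENO1 was lost without scaling factors (adjusted p = 0.15). S100A10 rose 3.43-fold (log2 1.78 ± 0.04, edgeR adjusted p = 6.27e-15) and ANXA2 1.83-fold (0.87 ± 0.04, adjusted p = 1.29e-11). SERPINE2, protease nexin 1, an inhibitor of thrombin and of the plasminogen activators, rose 3.89-fold (1.96 ± 0.12, adjusted p = 7.75e-10). LRP1, an endocytic receptor that clears activator and inhibitor complexes, fell by 0.56 ± 0.07. PLAUR fell by 0.52 ± 0.21 (edgeR adjusted p = 0.0393), a call that DESeq2 (0.145), no filter (0.0612) and each removal of a siControl or untreated siCEBPA library ended.

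In siCEBPA cells 4 of these 8 rose and 2 fell (58.2% of all genes called), ENO1 again not without scaling factors (adjusted p = 0.0994), and S100A10 (1.69), ANXA2 (0.83) and SERPINE2 (2.79) rose again. SERPINE2 responded more under siCEBPA than under siControl, by 0.83 ± 0.19 (edgeR adjusted p = 0.0114). That call was lost without progestin siControl replicate 2 (0.79) and without untreated siCEBPA replicate 2 (0.78). Its mean level was 0.986 CPM under siCEBPA against 1.60 CPM under siControl untreated, and 6.88 against 6.23 CPM with progestin. With ICRF, 8 were tested too, and 2 rose and 2 fell (61.4% of all genes called). S100A10 rose by 0.62 ± 0.03 there and SERPINE2 by 1.40 ± 0.15, while the change of ANXA2 was 0.04 ± 0.03 and was not called. The S100A10 response was smaller with ICRF than with siControl by 1.15 ± 0.05 on the log2 scale (edgeR adjusted p = 2.56e-13) and that of ANXA2 by 0.83 ± 0.05 (adjusted p = 1.32e-11). For F3 the corresponding reduction was 1.79.

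Of the 7 anticoagulant genes, 4 were tested in the siRNA fit. In siControl cells 1 rose and 2 fell, under siCEBPA 2 rose and 2 fell, and with ICRF 1 of 3 rose and 2 fell. The shares of all genes called were 58.5%, 58.2% and 61.4%. The siControl riser, SERPINA5, was lost without untreated siControl replicate 2 (adjusted p = 0.0843) or progestin siControl replicate 2 (0.147). The ICRF riser, PROS1, was lost under DESeq2 (0.073) and without untreated replicate 1 (0.14) or progestin replicate 1 (0.172). PROCR, the endothelial protein C receptor, which presents protein C to the complex of thrombin and thrombomodulin, fell by 0.57 ± 0.09, 0.45 ± 0.09 and 0.54 ± 0.08 in the 3 settings. It was also lower in siCEBPA than in siControl cells, by 0.75 ± 0.09 untreated (edgeR adjusted p = 3.67e-06). TFPI2, a relative of TFPI, fell by 1.97 ± 0.46 in siControl cells, from 96 to 14 summed read pairs. It fell by 1.97 and 1.81 in the other settings, where removals of single libraries and, with ICRF, DESeq2 (0.11) ended the call. TFPI2 passed the filters through its untreated groups alone, so its fall was tested only because it was high there. Thrombomodulin and its partner receptor thus moved in opposite directions with the hormone.

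Of the 16 clotting factor and fibrinogen genes, 7 were tested in the siRNA fit and 5 in the ICRF fit. In siControl cells 2 rose and 1 fell, under siCEBPA 4 rose and 1 fell, and with ICRF 2 rose and 3 fell, against 58.5%, 58.2% and 61.4% of all genes called. Among the siCEBPA risers, F5 and KLKB1 passed the filter of the siRNA fit through the progestin siCEBPA group alone. They had 11 and 10, and 16 and 12 read pairs in that group, and were tested only because they were high there. Several of the calls on this list did not hold. DESeq2 ended those of F5 (0.0791), VWF (0.0622) and KLKB1 (0.129) under siCEBPA, of KNG1 in siControl cells (0.143) and of FGB with ICRF (0.0918). KNG1 in siControl cells was lost as well under upper quartile factors (0.0644) and without scaling factors (0.0784), and each of these 5 calls was lost in at least 2 removals of single libraries. F7 fell in all 3 settings, by 0.48 ± 0.16, 0.65 ± 0.19 and 1.12 ± 0.27, although the siControl call did not hold without untreated replicate 2 (adjusted p = 0.144) or progestin replicate 2 (0.245), nor the siCEBPA call without untreated siCEBPA replicate 1 (0.0838). It was also lower with CEBPA knockdown, by 0.88 ± 0.16 untreated and by 1.05 ± 0.18 with progestin. F8 rose by 1.15 ± 0.11 on the log2 scale and F12 fell by 1.13 ± 0.16 with ICRF, whereas neither was called in the siRNA cells, and both differed from siControl in the test of the difference (adjusted p = 1.66e-06 and 0.00213). All the clotting factors tested were below 6 TPM in every group.

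**Figure D4:**
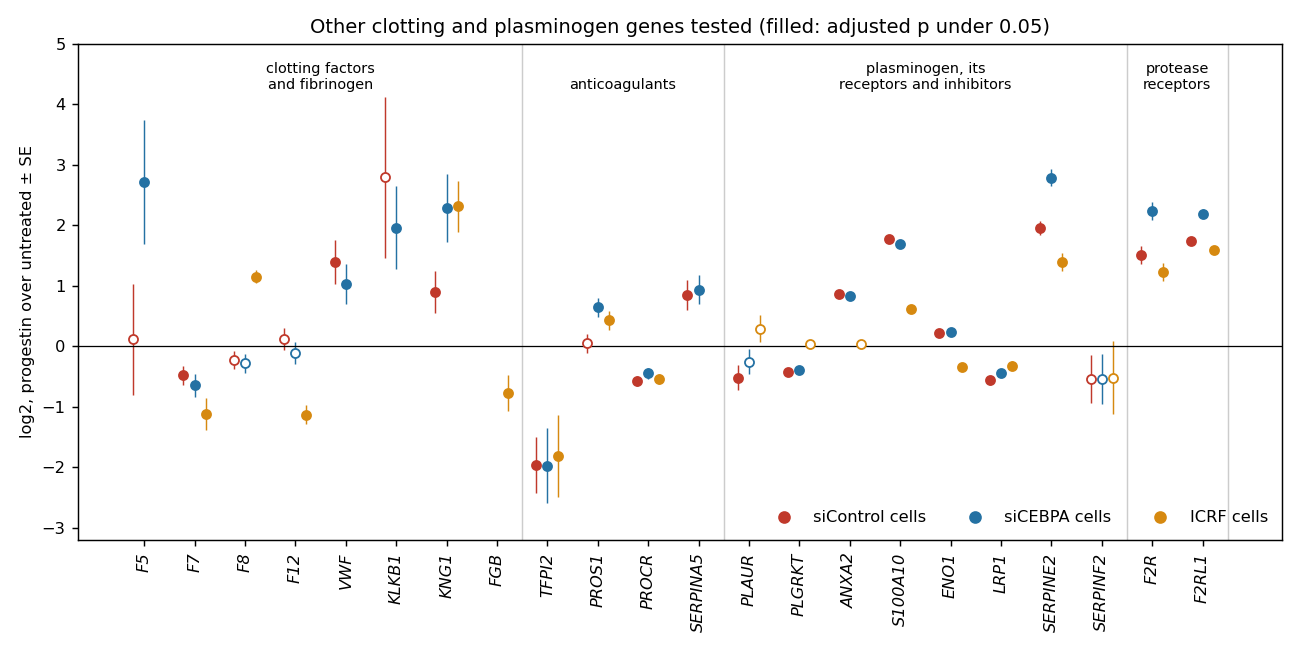
Log2 change with progestin ± SE from edgeR (vertical axis) for the other clotting and plasminogen genes that were tested (horizontal axis), in siControl (red), siCEBPA (blue) and ICRF cells (orange), with filled points for an adjusted p under 0.05. S100A10, SERPINE2, F2R and F2RL1 rose in all 3 settings, and F7, TFPI2, PROCR and LRP1 fell in all 3.

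Over the 12 libraries, the log2 CPM of F3 ran most closely with SLC31A2 (Pearson r 0.994), IL13RA1 (0.993) and S100A10 (0.99). The ranking covered 11286 genes with a mean of at least 1 CPM. It left out genes without a symbol and those with LINC, LOC, antisense, clone or orf names. Symbols ending in P and a number were left out too, a form that coding genes can have, so a closer gene may be missing. THBD ran most closely with RRM2B (0.984), RHOU (0.98) and FAM124A (0.976), PLAU with TSPAN31 (0.942), PPIP5K1 (0.935) and ZYG11A (0.925), and PLAT with SLC6A8 (0.874), GRB10 (0.867) and MRPS25 (0.852). Among the members r was 0.892 for F3 with THBD, -0.889 for F3 with PLAU and -0.768 for THBD with PLAU. The libraries fall into untreated and progestin groups, and the points share their library and its depth, so these values describe the pattern and carry no test.

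The nearest tested genes on either side did not all move with the members. ABCD3, 10.6 kb from F3, changed by -0.04 on the log2 scale in siControl cells and by -0.12 under siCEBPA, neither past the threshold, and by 0.18 with ICRF (adjusted p = 0.000202). SLC44A3-AS1, 72 kb from F3 on the other side, was not called in any setting. CAMK2G, 34.6 kb from PLAU, changed by -0.11 in siControl cells, which was not called, fell by 0.45 under siCEBPA and rose by 0.62 with ICRF. VCL, 77.7 kb from PLAU on the other side, rose by 0.39 in siControl and by 0.99 in siCEBPA cells and fell by 0.23 with ICRF. NXT1, 301 kb from THBD, rose by 0.72 in siControl and by 0.78 in siCEBPA cells, as THBD did, and fell by 0.28 with ICRF. AP3M2, 3.56 kb from PLAT, fell by 0.65 and 0.55 in the siRNA cells and rose by 0.71 with ICRF.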

How the data were processed

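RNA was sequenced in 12 T47D libraries (TruSeq Stranded mRNA kit, per the labels' protocols), in 6 groups of 2 taken from the sample titles. The values deposited by the authors are raw counts of read pairs per gene, made by featureCounts 1.5.1 with strand on GENCODE 24 and hg38 from STAR alignments, per the file headers. Trimmomatic is named, with no version, per the submitters' processing notes. Alignment settings are not given in the sources used here. Symbols were found for 56558 of 60554 genes.

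Counts were filtered (filterByExpr), scaled (TMM) and tested with edgeR 4.0.16 (robust glmQLFit, glmQLFTest, Benjamini-Hochberg) in R 4.3.3, after tests on simulated data. The siRNA fit held 8 libraries, the ICRF fit 4, and a fit of all 12 gave the difference of ICRF and siControl responses. The SE is the size of the log2 change over the square root of F. CPM and TPM were computed from the counts. DESeq2 1.42.0 was an alternative, with other scaling, no filter, a replicate block and single libraries left out.

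The members, the gene lists and the rule for the genes named were chosen with earlier results of these data known. The rule names the members, CEBPA, PLAUR, F2RL1 and PROCR always, up to 4 called genes of each list with the smallest adjusted p, and the 3 genes closest in pattern. F7, PLGRKT and other partners plotted by level, and the neighbouring genes, were added for context. From the list of plasminogen, its receptors and inhibitors, 1 further gene was left out, also of the counts, and is not reported here. Whether same-numbered replicates share a culture or day is not known, since the labels name none.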

Additional observations from a re-analysis of the deposited data

Results flagged for a closer look

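The hormone response of F3 differed between the ICRF libraries and the siControl libraries by -1.79 ± 0.18 on the log2 scale (ICRF minus siControl, edgeR adjusted p = 5.46e-08). Both replicates of each group lay on the same side, and leaving out single libraries moved the value between -1.96 and -1.70. The response of PLAU differed by 1.68 ± 0.57 (edgeR adjusted p = 0.0182), a smaller fall with ICRF. Leaving out single libraries moved that value between 1.35 and 1.93, and some of these removals ended the call. In the same test 48.9% of all genes were called, and the sets also differ in their experiment labels, so inhibitor and set cannot be told apart.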

How the results depend on the processing

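Of the 27 member results, the values under every alternative kept direction and side of the threshold in 326 recomputations, 23 lost the call, 1 gained it and 7 changed sign. F3 kept every call under every alternative, with leave-one-out ranges of 3.75 to 4.00 (siControl), 3.30 to 3.58 (siCEBPA) and 1.96 to 2.12 (ICRF) on the log2 scale. THBD and PLAU kept their hormone calls in siControl (2.69 to 2.97 and -3.29 to -2.78) and ICRF cells (4.01 to 4.27 and -1.65 to -1.12), and THBD also in siCEBPA cells (4.64 to 8.88). Where a library was left out, its lone partner is assumed to vary like the other groups.

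DESeq2 ended the PLAT hormone call in siCEBPA cells (1.82) and the THBD knockdown call with progestin (1.13), and no filter ended both PLAT calls (1.793 and 1.825). Leave-one-out ranges of the calls that were lost were 1.72 to 1.84 (PLAT hormone, siCEBPA), 1.58 to 2.11 (PLAT knockdown, progestin), 1.06 to 1.20 (THBD knockdown, progestin), -2.38 to -0.78 (PLAU hormone, siCEBPA), -1.48 to -0.85 (PLAU knockdown, untreated) and 1.35 to 1.93 (PLAU, ICRF minus siControl). PLAU for siCEBPA minus siControl ran from 0.66 to 2.26 and passed once. Signs turned for PLAU knockdown with progestin (-0.48 to 1.12) and for PLAT, ICRF minus siControl, which was 0.0039 with upper quartile factors, 0.11 without scaling and -0.84 to 2.09 with libraries left out. The cause was not tested.

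The number of genes called for siCEBPA minus siControl, 1329, was 2271 with the replicate block and 692 to 1379 with single libraries left out. The replicate block changed no other call reported for the members. Same-numbered libraries of the siRNA groups had deviations correlated at -0.04 to 0.51, and the labels do not pair them. At 0 to 14 read pairs per library, TFPI and PLAT levels are limited by depth.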
